A study of Mus musculus with 8 samples.

Results

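The enzymes that write, copy and erase DNA methylation, and the catalytic subunits of Polycomb repressive complex 2 (PRC2), were followed in Treg cells with and without Foxp1. They are 10 genes chosen by name out of the 27594 in the deposited count table: Dnmt1, Dnmt3a, Dnmt3b, Uhrf1, Uhrf2, Tet1, Tet2, Tet3, Ezh1 and Ezh2. All 10 were in the table and all 10 passed the filter on low counts, as did 14540 genes in total. No measured value entered the choice of these names, although it was made with earlier results of these data known.

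The study compared Treg cells of Foxp1fl/fl Foxp3-YFP-Cre mice (Foxp1-deficient, labelled cKO) with those of Foxp3-YFP-Cre mice (WT). All mice were C57BL/6 and aged 6 to 8 weeks, and the cells came from spleen and peripheral lymph nodes. Cre is fused to YFP and driven from the Foxp3 locus, so both genotypes carried it, and sorted cells were CD4+ YFP+. Resting Treg (rTreg) cells were gated as CD44low and activated Treg (aTreg) cells as CD44high, together with a further surface marker. RNA sequencing gave 2 libraries for each of the 4 groups, 8 in all. The labels do not say whether a library came from 1 mouse or from several.

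DNA methylation at CpG sites is copied after replication by Dnmt1, the maintenance methyltransferase, which UHRF1 brings to hemimethylated DNA. Dnmt3a and Dnmt3b set methylation at new sites, and the TET enzymes oxidise methylcytosine, which leads to its loss. Ezh1 and Ezh2 are the alternative catalytic subunits of PRC2, which places the repressive methyl marks on lysine 27 of histone H3. In Treg cells, demethylation of a conserved intronic element of Foxp3 is known for stable Foxp3 expression, and Ezh2 is known for maintaining their identity after activation.

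Uhrf1 changed with both genotype and subset, while its paralog Uhrf2 did not pass the test for genotype, and the stretches upstream of their start sites are shown for that reason. Both are from RefSeq on GRCm38.p6, plus strand, 5′ to 3′. Capitals mark letters often bound by E2F factors, TTCCCGC or TTGGCGC. E2F factors are regulators of replication genes. The Uhrf1 stretch covers chr17:56303087-56303320 and ends where the first annotated exon starts. The Uhrf2 stretch covers chr19:30030263-30030512.
Uhrf1: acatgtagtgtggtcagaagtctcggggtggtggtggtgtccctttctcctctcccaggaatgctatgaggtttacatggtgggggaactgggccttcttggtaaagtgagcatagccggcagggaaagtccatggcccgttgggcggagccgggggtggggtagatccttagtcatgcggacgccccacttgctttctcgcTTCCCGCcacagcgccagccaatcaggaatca
Uhrf2: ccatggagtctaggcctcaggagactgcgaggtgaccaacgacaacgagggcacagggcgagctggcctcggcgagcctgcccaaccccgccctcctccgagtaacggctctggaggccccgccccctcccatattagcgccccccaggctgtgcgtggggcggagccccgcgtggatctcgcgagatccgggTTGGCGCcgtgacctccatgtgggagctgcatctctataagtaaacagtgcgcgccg
Within the 250 bases before a start, TTCCCGC lay 48 to 42 bases before the Uhrf1 start at chr17:56303337, and TTGGCGC lay 57 to 51 bases before the Uhrf2 start. RefSeq gave 15 start sites for the 10 genes, and these were the only matches to either sequence on either strand among them. That is 13.3% of these windows, against 5.62% of 32851 mouse promoter windows of the same length. The windows of the 10 genes also held more G and C, with a median of 68.4% against 52.4%. The part of this in the share of matches was not tested. No match was found before the second Uhrf1 start or before any start of the Dnmt, Tet and Ezh genes. The forkhead letters TGTTTAC stood 17 to 11 bases before the Uhrf2 start on the opposite strand, and TGTTTGC stood 162 to 156 bases before one Dnmt1 start; 3.17% and 4.3% of all windows held these letters on either strand. These windows were rich in CpG, the substrate of the enzymes themselves, with a median of 21 CpG sites against 6 in all windows.

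Library totals ran from 6373170 counts in Foxp1-deficient rTreg replicate 1 to 15268623 in WT aTreg replicate 2, with a median of 12327710. The fewest counts of any of the 10 genes in any library were the 94 of Uhrf1 in WT rTreg replicate 1. Foxp1 itself was counted over the whole gene at 369 ± 21.4 CPM (counts scaled to library size, SD, n = 2) in WT rTreg and 340 ± 2.97 in Foxp1-deficient rTreg cells, with a log2 fold change of -0.12 (SE 0.09) and an edgeR adjusted p of 0.460. In aTreg cells it stood at 232 ± 2.96 and 114 ± 17.3 CPM, with a log2 fold change of -1.03 (SE 0.10) and an edgeR adjusted p of 0.00194. By this gene, the genotype labels are checked in aTreg cells and left unchecked in rTreg cells. In YFP+ Treg cells of Foxp1-deficient mice, not split by subset, the paper reports complete deletion of Foxp1 by immunoblot, mRNA and staining. All 7 Treg markers, among them Foxp3, Cd4 and Il2ra, were above 3 counts in every library, and Cd44 was higher in WT aTreg than in WT rTreg cells.

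Levels below are CPM after TMM normalization, which compare 1 gene across libraries, and FPKM, which also divide by gene length and compare genes with each other. Changes were tested across all genes with edgeR's quasi-likelihood test with the replicate number as a block, and p-values were adjusted by Benjamini-Hochberg. Calls needed an adjusted p under 0.05 together with a 1.5-fold difference (genotypes) or a 2-fold difference (subsets). In a bulk sample, a change in the share of cells that express a gene cannot be told apart from a change in RNA per cell.

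**Figure D1:**
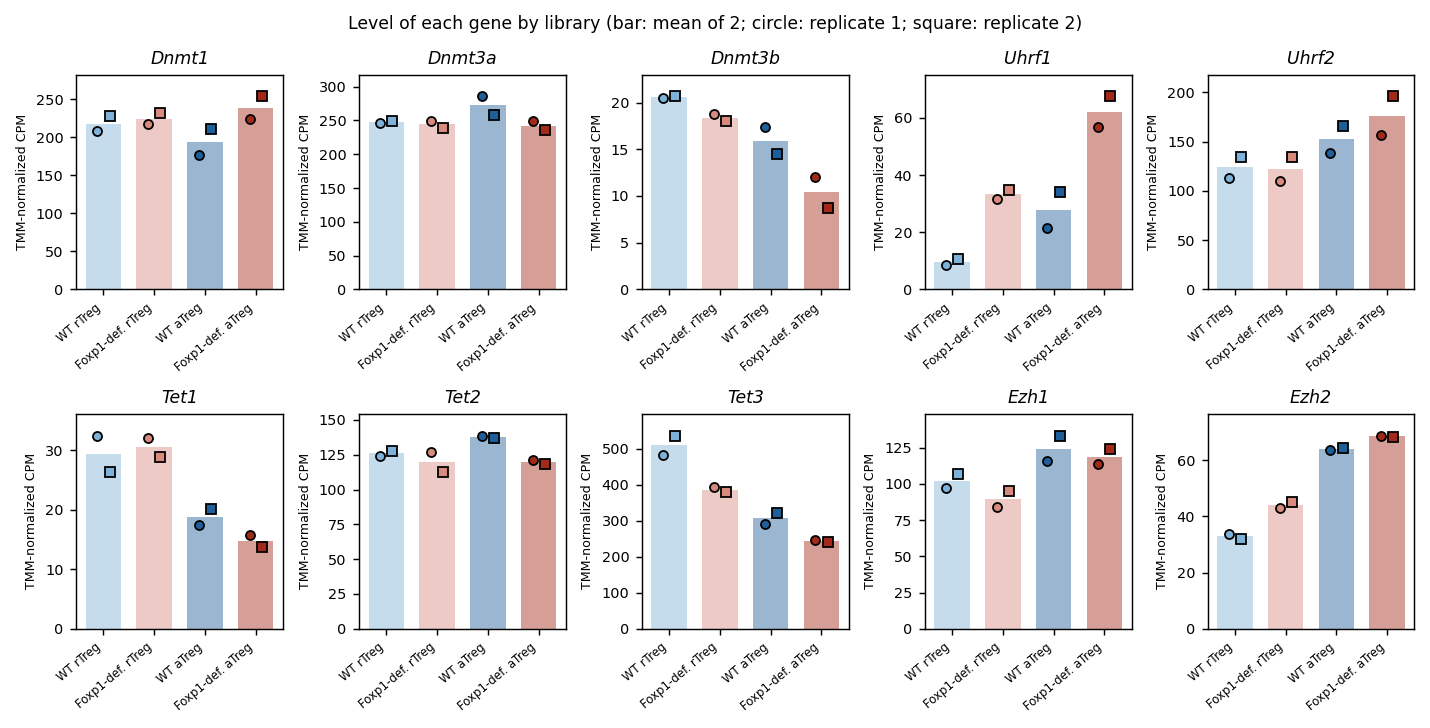
TMM-normalized CPM of the 10 genes in each library, by group on the x axis, with bars for the mean of 2 libraries, circles for replicate 1 and squares for replicate 2. Uhrf1 stepped from 9.67 CPM in WT rTreg to 62.2 CPM in Foxp1-deficient aTreg cells, Tet3 from 509 down to 245 CPM, and Dnmt3a stayed between 236 and 286 CPM in every library.

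Between genotypes, Uhrf1 had the largest change of the 10 genes in both subsets. In rTreg cells 1 of the 10 genes was called higher and none lower, against 2.9% and 2.7% of all genes tested. By adjusted p alone, Uhrf1 and Ezh2 rose and Tet3 fell, that is 2 higher and 1 lower, where 6.57% and 5.45% of all genes did. The median log2 fold change of the 10 genes was -0.02, against 0.00 for all genes. In aTreg cells Uhrf1 was called higher and Dnmt3b lower, against 2.37% and 1.66% of all genes. By adjusted p alone, Uhrf1 and Dnmt1 rose and Dnmt3b and Tet3 fell, against 4.11% and 2.77%, with a median of -0.11 for the 10 genes and 0.00 for all genes.

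Between subsets, most of the 10 genes passed the adjusted p, and most changes were smaller than 2-fold. In WT cells, Uhrf1 was called higher in aTreg than in rTreg cells and no gene was called lower, where 9.5% and 2.83% of all genes were called. By adjusted p alone, 4 rose (Uhrf1, Ezh2, Uhrf2 and Ezh1) and 2 fell (Tet3 and Tet1), against 18.2% and 13.6% of all genes. In Foxp1-deficient cells no gene was called higher and Tet1 was called lower, against 11.3% and 4.39%. By adjusted p alone the same 4 genes rose, and Tet1, Dnmt3b and Tet3 fell, against 21.9% and 18.2% of all genes. The 2 genotype comparisons and the 2 subset comparisons share libraries, so their values are given side by side and not as separate evidence.

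**Figure D2:**
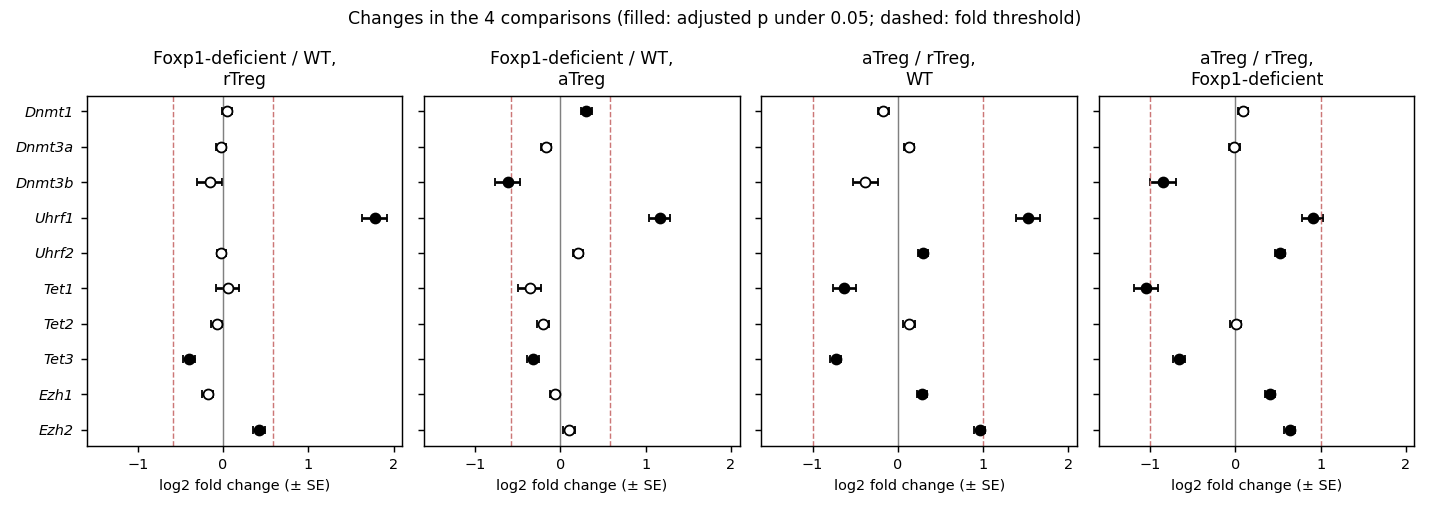
Log2 fold changes of the 10 genes on the x axis in the 4 comparisons, with error bars of 1 SE. Filled points passed an adjusted p of 0.05, and dashed lines mark 1.5-fold (genotype) and 2-fold (subset); Uhrf1 lies furthest right in all 4 panels, at 1.78, 1.16, 1.52 and 0.91, and Tet3 lies left of 0 in all 4.

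Among the genes of maintenance methylation, Uhrf1 changed most. Uhrf1, which reads hemimethylated CpG and ubiquitinates histone H3, spans chr17:56303321-56323486 on the plus strand of GRCm38. Its level was 8.66 and 10.7 CPM in the WT rTreg libraries and 31.7 and 34.9 CPM in the Foxp1-deficient rTreg libraries. In WT aTreg cells it was 21.5 and 34.2 CPM, and in Foxp1-deficient aTreg cells 56.8 and 67.6 CPM. The genotypes overlapped in neither subset, and both Foxp1-deficient rTreg libraries lay near the higher of the WT aTreg libraries. The genotype difference was 3.43-fold in rTreg cells, with a log2 fold change of 1.78 (SE 0.14) and an edgeR adjusted p of 0.000698. In aTreg cells it was 2.24-fold, with a log2 fold change of 1.16 (SE 0.12) and an adjusted p of 0.00286 by the same edgeR test; without the replicate block that adjusted p was 0.0915 and the call was lost. From rTreg to aTreg, Uhrf1 rose by 1.52 on the log2 scale in WT cells (SE 0.14, edgeR adjusted p = 0.000201) and by 0.91 in Foxp1-deficient cells (SE 0.12, adjusted p = 0.000874). The second of these was 1.88-fold and under the 2-fold threshold.

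Dnmt1, the methyltransferase that UHRF1 brings to DNA, moved far less. It stood at 208 and 228 CPM in WT rTreg, 218 and 232 CPM in Foxp1-deficient rTreg, 177 and 211 CPM in WT aTreg and 225 and 254 CPM in Foxp1-deficient aTreg cells. In aTreg cells the lowest Foxp1-deficient library lay above the highest WT library, and in rTreg cells the genotypes overlapped. The aTreg difference was 1.24-fold, with a log2 fold change of 0.31 (SE 0.06) and an edgeR adjusted p of 0.0285, which rose to or above the threshold in 10 of 17 alternatives (adjusted p 0.00308 to 0.343). In rTreg cells the log2 fold change was 0.05 (SE 0.06, edgeR adjusted p = 0.670). The FPKM of Dnmt1 relative to Uhrf1 was 13.1 ± 1.11 (SD, n = 2) in WT rTreg, 3.903 ± 0.08 in Foxp1-deficient rTreg, 4.15 ± 0.83 in WT aTreg and 2.23 ± 0.08 in Foxp1-deficient aTreg cells. Dnmt1 was thus the more abundant of the pair in every library, and by the widest margin in WT rTreg cells.

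Uhrf2, a paralog with a similar domain arrangement that does not replace UHRF1 in maintenance methylation, followed the subsets. It stood at 114 and 134 CPM in WT rTreg, 110 and 135 CPM in Foxp1-deficient rTreg, 139 and 166 CPM in WT aTreg and 157 and 196 CPM in Foxp1-deficient aTreg cells. In all 4 groups replicate 2 was the higher library. The rise from rTreg to aTreg cells was 0.30 on the log2 scale in WT cells (SE 0.06, edgeR adjusted p = 0.00622) and 0.53 in Foxp1-deficient cells (SE 0.06, adjusted p = 0.000306). Without the replicate block, both subset differences of Uhrf2 lost significance, with edgeR adjusted p of 0.270 and 0.0546, and the WT difference also without WT rTreg replicate 2 (adjusted p = 0.0588). Between genotypes its log2 fold change was -0.02 (SE 0.06) in rTreg and 0.21 (SE 0.06) in aTreg cells, with edgeR adjusted p of 0.882 and 0.0738. Per length, Uhrf2 exceeded Uhrf1 6.36 ± 0.20 times (SD, n = 2) in WT rTreg cells and 1.40 ± 0.05 times in Foxp1-deficient aTreg cells.

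Among the de novo methyltransferases, Dnmt3b was the lower and the one that changed. It stood at 20.4 and 20.7 CPM in WT rTreg, 18.8 and 18.0 CPM in Foxp1-deficient rTreg, 17.3 and 14.5 CPM in WT aTreg and 12.1 and 8.70 CPM in Foxp1-deficient aTreg cells. The library pairs of the 4 groups did not overlap and descended in that order. Dnmt3b fell by 0.62 on the log2 scale in Foxp1-deficient aTreg against WT aTreg cells (SE 0.15), with an edgeR adjusted p of 0.0499. This call sat on the threshold: it was lost in 14 of 17 alternatives, whose adjusted p ran from 0.0155 to 0.335, and its log2 fold change without Foxp1-deficient aTreg replicate 2 was -0.44. From rTreg to aTreg, Dnmt3b fell by 0.84 in Foxp1-deficient cells (SE 0.15, edgeR adjusted p = 0.00325), and in WT cells the log2 fold change was -0.38 (SE 0.14, adjusted p = 0.0778).

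Dnmt3a, the main de novo enzyme of mature T cells, passed the test in none of the 4 comparisons. Its 8 libraries lay between 236 CPM in Foxp1-deficient aTreg replicate 2 and 286 CPM in WT aTreg replicate 1. Its largest log2 fold change was -0.17 (SE 0.06) between genotypes in aTreg cells, with an edgeR adjusted p of 0.144. With the length trend removed, Dnmt3a passed between WT subsets (0.22 higher in aTreg on the log2 scale, edgeR adjusted p = 0.0326). Per length, Dnmt3a exceeded Dnmt3b 3.70 ± 0.00 times (SD, n = 2) in WT rTreg, 4.07 ± 0.01 times in Foxp1-deficient rTreg, 5.27 ± 0.30 times in WT aTreg and 7.33 ± 1.42 times in Foxp1-deficient aTreg cells.

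The TET dioxygenases behaved unlike each other, and Tet3 was the most abundant of them. Tet3 stood at 482 and 536 CPM in WT rTreg, 393 and 379 CPM in Foxp1-deficient rTreg, 292 and 321 CPM in WT aTreg and 248 and 241 CPM in Foxp1-deficient aTreg cells. Groups did not overlap, and each Foxp1-deficient group lay below the WT group of the same subset. Between genotypes Tet3 fell by 0.40 on the log2 scale in rTreg cells (SE 0.07, 1.32-fold, edgeR adjusted p = 0.0125) and by 0.32 in aTreg cells (SE 0.07, 1.25-fold, adjusted p = 0.0352). These 2 differences are small: the adjusted p was at or above the threshold in 4 of 17 alternatives for rTreg (up to 0.137) and in 8 of 17 for aTreg cells (up to 0.275). Between subsets it fell by 0.73 in WT cells (SE 0.07, edgeR adjusted p = 0.000216) and by 0.66 in Foxp1-deficient cells (SE 0.07, adjusted p = 0.000253), and both held the adjusted p threshold in all 17 alternatives.

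Tet1, the least abundant TET gene, followed the subset. It stood at 32.4 and 26.3 CPM in WT rTreg, 32.03 and 28.9 CPM in Foxp1-deficient rTreg, 17.3 and 20.1 CPM in WT aTreg and 15.7 and 13.8 CPM in Foxp1-deficient aTreg cells. All 4 rTreg libraries lay above all 4 aTreg libraries. It fell by 1.05 on the log2 scale from rTreg to aTreg in Foxp1-deficient cells (SE 0.14, 2.07-fold, edgeR adjusted p = 0.000733) and by 0.63 in WT cells (SE 0.13, 1.55-fold, adjusted p = 0.00969). The WT difference had an edgeR adjusted p of 0.0903 without WT rTreg replicate 1 and of 0.0619 without WT aTreg replicate 1. The Foxp1-deficient call needed replicate 2 of the aTreg libraries, without which the log2 fold change was -0.999 and under 2-fold. Between genotypes its log2 fold changes were 0.05 (SE 0.13) in rTreg and -0.36 (SE 0.14) in aTreg cells, with edgeR adjusted p of 0.831 and 0.169.

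Tet2, the TET gene best known from T cell lymphoma and Treg stability, passed the test in no comparison. Its libraries lay between 113 CPM in Foxp1-deficient rTreg replicate 2 and 139 CPM in WT aTreg replicate 1, and its largest log2 fold change was -0.20 (SE 0.07) between genotypes in aTreg cells (edgeR adjusted p = 0.120). With the length trend removed it passed between WT subsets, 0.21 higher in aTreg cells on the log2 scale (edgeR adjusted p = 0.0377). The FPKM of Tet3 relative to Tet2 was 4.08 ± 0.23 (SD, n = 2) in WT rTreg, 3.26 ± 0.19 in Foxp1-deficient rTreg, 2.25 ± 0.17 in WT aTreg and 2.06 ± 0.00 in Foxp1-deficient aTreg cells. Tet2 relative to Tet1 was 3.88 ± 0.64 and 3.51 ± 0.03 in the rTreg groups and 6.62 ± 0.74 and 7.28 ± 0.52 in the aTreg groups, WT first. The balance among the 3 TET genes thus differed more between subsets than between genotypes.

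Ezh2, the PRC2 subunit of dividing cells, was higher in aTreg cells of both genotypes. It stood at 33.9 and 31.97 CPM in WT rTreg, 42.9 and 44.99 CPM in Foxp1-deficient rTreg, 63.5 and 64.3 CPM in WT aTreg and 68.7 and 68.3 CPM in Foxp1-deficient aTreg cells. Replicates differed little and the 4 groups did not overlap. The rise from rTreg to aTreg cells was 0.96 on the log2 scale in WT cells (SE 0.07, 1.94-fold, edgeR adjusted p = 6.17e-05), just under the 2-fold threshold, and 1.02 without WT rTreg replicate 1. In Foxp1-deficient cells it was 0.64 (SE 0.07, 1.55-fold, edgeR adjusted p = 0.000275). Between genotypes Ezh2 rose by 0.42 in rTreg cells (SE 0.07, 1.34-fold, edgeR adjusted p = 0.0117), a difference whose adjusted p was at or above the threshold in 4 of 17 alternatives (up to 0.135). In aTreg cells the genotype difference was 0.10 (SE 0.07, edgeR adjusted p = 0.414).

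Ezh1, the paralog that also serves non-dividing cells, was more abundant than Ezh2 per length in every library. It stood at 96.8 and 107 CPM in WT rTreg, 84.3 and 95.2 CPM in Foxp1-deficient rTreg, 115 and 133 CPM in WT aTreg and 113 and 124 CPM in Foxp1-deficient aTreg cells. The rTreg and aTreg libraries did not overlap, while the genotypes overlapped in aTreg cells. It rose from rTreg to aTreg by 0.29 on the log2 scale in WT cells (SE 0.06, edgeR adjusted p = 0.00797) and by 0.40 in Foxp1-deficient cells (SE 0.06, adjusted p = 0.00126). The WT difference had an edgeR adjusted p of 0.132 without the replicate block, 0.0683 without WT rTreg replicate 2 and 0.0545 without WT aTreg replicate 2. Between genotypes its log2 fold change was -0.18 (SE 0.06) in rTreg and -0.07 (SE 0.06) in aTreg cells, with edgeR adjusted p of 0.0910 and 0.560. The FPKM of Ezh2 relative to Ezh1 was 0.39 and 0.33 in the WT rTreg libraries, 0.57 and 0.53 in Foxp1-deficient rTreg, 0.61 and 0.54 in WT aTreg and 0.68 and 0.61 in Foxp1-deficient aTreg cells. In Foxp1-deficient rTreg cells it lay between those of WT rTreg and Foxp1-deficient aTreg cells and overlapped that of WT aTreg cells.

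**Figure D3:**
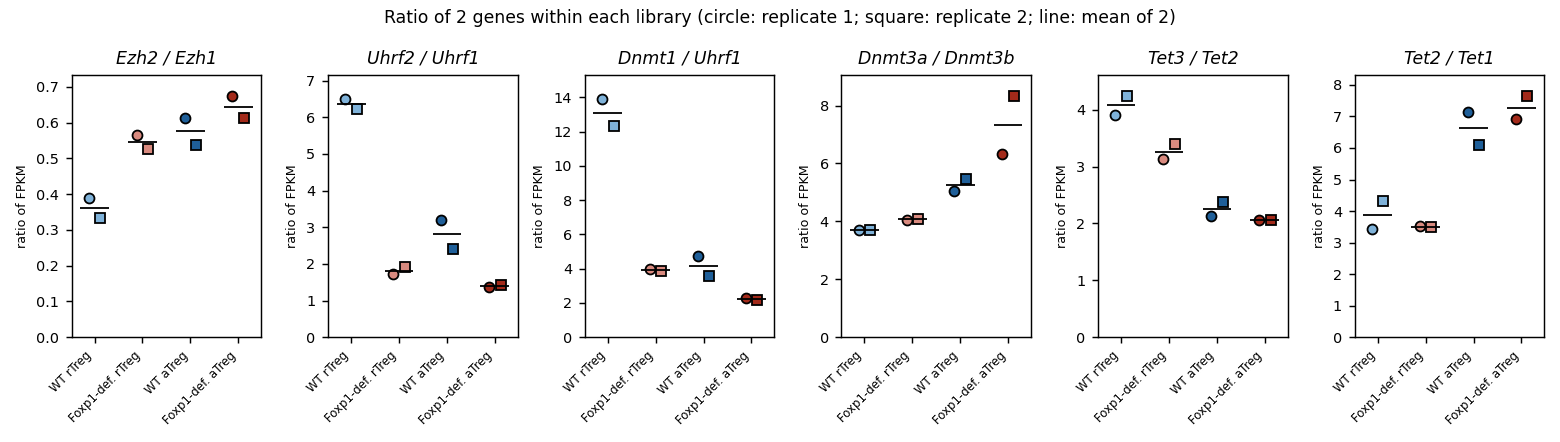
Ratio of FPKM of 2 genes within each library, by group on the x axis, for 6 pairs, with circles for replicate 1, squares for replicate 2 and lines for the mean. Uhrf2 over Uhrf1 was 6.36 in WT rTreg cells and between 1.40 and 2.80 in the other groups, and Dnmt3a over Dnmt3b rose to 7.33 in Foxp1-deficient aTreg cells.

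By FPKM, WT rTreg cells expressed Tet3 (30.2 ± 1.56, SD, n = 2) and Dnmt1 (29.2 ± 1.16) most, and these 2 overlapped. Dnmt3a, Uhrf2 and Ezh1 followed between 13.5 and 14.7 and overlapped with their neighbours, then Tet2 (7.39 ± 0.04), Ezh2 (4.89 ± 0.32) and Dnmt3b (3.99 ± 0.06) without overlap. Uhrf1 (2.25 ± 0.28) and Tet1 (1.93 ± 0.33) were last and overlapped. In Foxp1-deficient aTreg cells the order was Dnmt1 (32.6 ± 1.80), Uhrf2 (20.6 ± 2.56) and Ezh1 (16.0 ± 0.51), followed by Tet3, Dnmt3a and Uhrf1, all at 14.7 and overlapping. Ezh2 (10.3 ± 0.38), Tet2 (7.15 ± 0.37), Dnmt3b (2.05 ± 0.54) and Tet1 (0.99 ± 0.12) came below without overlap. Uhrf1 thus moved from rank 9 of the 10 genes to rank 6, and Tet3 from rank 1 to rank 4. Uhrf1 stood at rank 6 in Foxp1-deficient rTreg (7.61 ± 0.39) and at rank 8 in WT aTreg cells (6.70 ± 2.14). These FPKM divide by 1 merged exon length per gene, and the lengths equalled those of GENCODE M21 for 9 of the 10 genes, Tet1 being the exception.

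The test of whether the genotype effect differed between aTreg and rTreg cells called 0 of the 10 genes by edgeR, 0 by DESeq2 and 0 by limma-voom. Over all genes, 0.186% had a positive and 0.144% a negative difference at an adjusted p under 0.05. At an unadjusted p under 0.05 edgeR gave 4 of the 10, DESeq2 3 and limma-voom 4. By edgeR these were Ezh2, with a difference of -0.32 on the log2 scale (unadjusted p = 0.0116, adjusted p = 0.211), Uhrf1 with -0.62 (adjusted p = 0.219), Dnmt1 with 0.26 (adjusted p = 0.262) and Uhrf2 with 0.23 (adjusted p = 0.294). Many other genes also passed the unadjusted cut. Ranked by edgeR p among 14540 tested genes, Uhrf2 (unadjusted p = 0.0247) stood at 1220 and Dnmt3b (unadjusted p = 0.0564) at 2032. The number of genes under 0.05 thus lay between these ranks. A genotype effect that passed in 1 subset and not in the other is therefore not shown to differ between them.

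Genes of the cell cycle moved with Uhrf1 and, less closely, with Ezh2. The summed level of 10 mitosis genes, among them Mki67, Top2a and Cdk1, was 27.5 and 32.8 CPM in WT rTreg, 136 and 178 in Foxp1-deficient rTreg, 112 and 202 in WT aTreg and 358 and 490 CPM in Foxp1-deficient aTreg cells. The summed level of 20 DNA replication genes, among them Pcna, the Mcm genes and E2f1, was 681 and 720 CPM in WT rTreg, 952 and 938 in Foxp1-deficient rTreg, 775 and 917 in WT aTreg and 1136 and 1209 in Foxp1-deficient aTreg cells. Both sums, like Uhrf1, were lowest in WT rTreg and highest in Foxp1-deficient aTreg cells, with the other 2 groups between them. Of the replication genes, 6 of 20 were called higher in rTreg and 4 of 20 in aTreg cells of Foxp1-deficient mice and none lower, with medians of 0.56 and 0.51 on the log2 scale against 0.00 for all genes. Of the mitosis genes, 8 of 10 and 10 of 10 were called higher, with medians of 2.58 and 1.5. For both lists, the shares of all tested genes called higher were 2.9% (rTreg) and 2.37% (aTreg). The shares called lower were 2.7% (rTreg) and 1.66% (aTreg). The part of cell division in the levels of Uhrf1, Ezh2 and Dnmt1 was not tested.

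**Figure D4:**
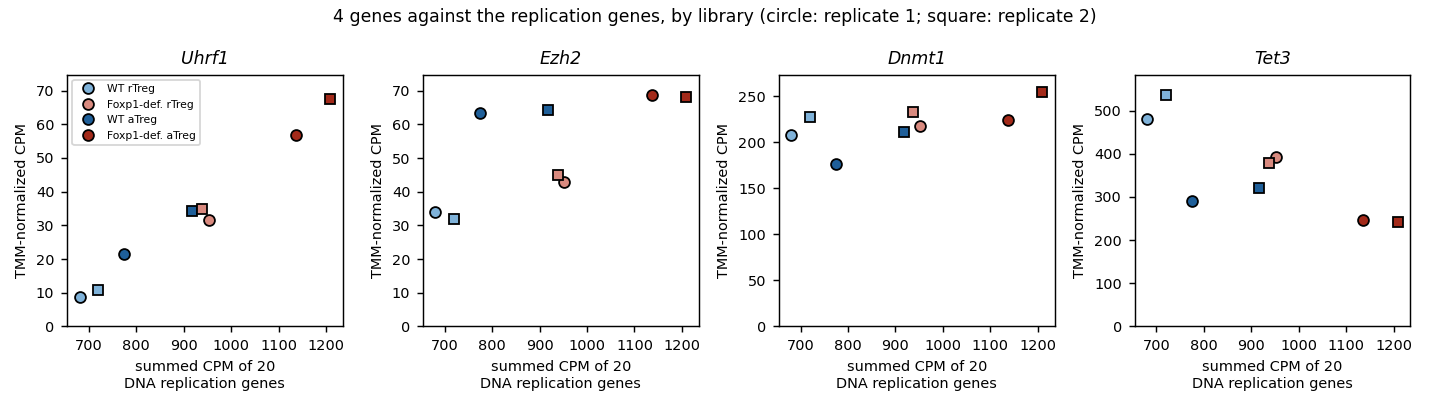
TMM-normalized CPM of Uhrf1, Ezh2, Dnmt1 and Tet3 on the y axis against the summed CPM of 20 DNA replication genes on the x axis, 1 point per library, coloured by group. Uhrf1 climbs with the replication sum from 8.66 to 67.6 CPM, whereas Ezh2 sits near 64 CPM in WT aTreg libraries whose replication sums (775 and 917 CPM) are below those of Foxp1-deficient rTreg libraries at 42.9 and 44.99 CPM.

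As a description over the 8 libraries, which fall in 4 groups and share depth and sort, the tested genes most like Uhrf1 by Pearson correlation of log2 CPM were Cdk1 (r = 0.998), the kinase that drives mitosis, and Cdc6 (r = 0.996), which loads the replicative helicase. Those most like Ezh2 were Chn2 (r = 0.994) and Siae (r = 0.993), and those most like Dnmt3b were Ppan (r = 0.989) and 9930104L06Rik (r = 0.985). For Tet3 they were Prickle3 (r = 0.992) and Ovgp1 (r = 0.991), and for Tet1 Ugcg (r = 0.993) and Usp36 (r = 0.990). Uhrf2 was most like Rfwd3 (r = 0.989) and Dynll2 (r = 0.988), and Ezh1 most like Pde4dip (r = 0.986) and AI504432 (r = 0.982). The genes that changed least had lower values, with Strn (r = 0.959) and Tcf12 (r = 0.954) for Dnmt1, Ctnnal1 (r = 0.944) and Wdr66 (r = 0.938) for Dnmt3a, and Mccc1 (r = 0.967) and Zfp69 (r = 0.962) for Tet2. Among the 10 genes themselves, Ezh2 ran opposite to Tet3 (r = -0.971) and Dnmt1 opposite to Dnmt3a (r = -0.927), and Uhrf1 ran with Ezh2 at r = 0.820 and with Dnmt1 at r = 0.430.

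The partners of DNA methylation added the remodelling factors Hells and Cdca7l. Hells, the helicase that opens chromatin for DNA methylation, stood at 7.83 and 6.99 CPM in WT rTreg, 16.1 and 14.2 CPM in Foxp1-deficient rTreg, 17.8 and 18.5 CPM in WT aTreg and 28.3 and 26.5 CPM in Foxp1-deficient aTreg cells. It rose between genotypes by 1.02 on the log2 scale in rTreg cells (SE 0.13, edgeR adjusted p = 0.00395) and by 0.59 in aTreg cells (SE 0.11, adjusted p = 0.0240), and by 1.30 from rTreg to aTreg in WT cells (SE 0.13, adjusted p = 0.000240). Cdca7l, a relative of the HELLS partner CDCA7, rose by 1.35 in Foxp1-deficient rTreg cells (SE 0.12, edgeR adjusted p = 0.000887), from 23.4 and 21.7 CPM to 52.4 and 61.8 CPM. Of the 7 partners tested, of 8 listed, these were 2 called higher in rTreg and 1 in aTreg cells and none lower. The shares of all tested genes called higher were 2.9% (rTreg) and 2.37% (aTreg), and those called lower were 2.7% and 1.66%. Of 8 methyl-CpG readers, none was called in any of the 4 comparisons. Of all genes, 2.37% to 11.3% were called higher and 1.66% to 4.39% lower. By adjusted p alone, Zbtb4 fell by 0.27 in Foxp1-deficient rTreg cells (edgeR adjusted p = 0.0345), where 5.45% of all genes fell. Mbd2 rose by 0.39 in aTreg cells (adjusted p = 0.0287), against 4.11%. From rTreg to aTreg, Mbd2 fell by 0.27 in WT cells (edgeR adjusted p = 0.0322), against 13.6%. Zbtb38 rose by 0.77 in Foxp1-deficient cells (adjusted p = 0.00108), against 21.9%.

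Among 8 partners of demethylation tested, of 9 listed, Gadd45a was the 1 called between genotypes. It was called lower in rTreg cells, as were 2.7% of all genes. Gadd45a, a stress-induced adaptor linked to DNA repair and demethylation, fell by 0.89 on the log2 scale in Foxp1-deficient rTreg cells (SE 0.14, edgeR adjusted p = 0.00838), from 16.6 and 15.6 CPM to 9.56 and 7.94 CPM. Its relative Gadd45b rose from rTreg to aTreg by 1.59 in WT (SE 0.11, edgeR adjusted p = 4.53e-05) and by 1.62 in Foxp1-deficient cells (SE 0.11, adjusted p = 2.97e-05). Gadd45b stood at 53.8 and 17.7 CPM in WT rTreg and 172.9 and 48.7 CPM in WT aTreg cells. In Foxp1-deficient cells it stood at 61.8 and 14.7 CPM in rTreg and 166.8 and 53.5 CPM in aTreg cells. The subsets thus overlapped in both genotypes, with replicate 1 the higher library in every group.

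Of the non-catalytic PRC2 genes, Phf19 was the 1 called in any comparison. Of 10 subunits and cofactors, none was called between genotypes in either subset. Of all genes, 2.9% (rTreg) and 2.37% (aTreg) were called higher, and 2.7% and 1.66% lower. By adjusted p alone, 1 of the 10 rose and 1 fell in rTreg cells, against 6.57% and 5.45% of all genes. In aTreg cells 1 rose and none fell, against 4.11% and 2.77%. Those of rTreg cells were Mtf2, which recruits PRC2 to CpG islands, with a log2 fold change of 0.55 (SE 0.07, edgeR adjusted p = 0.00308), and Phf1, another such cofactor, with -0.41 (SE 0.07, adjusted p = 0.00985). In aTreg cells it was Aebp2, a DNA-binding cofactor, with 0.24 (SE 0.05, edgeR adjusted p = 0.0398). Between subsets, 2 of the 10 rose in WT cells (Jarid2 and Aebp2), and 4 rose (Aebp2, Jarid2, Rbbp7 and Phf19) and 1 fell (Mtf2) in Foxp1-deficient cells, where 18.2% and 13.6% (WT) and 21.9% and 18.2% (Foxp1-deficient) of all genes rose and fell. Aebp2 rose by 0.72 in WT (SE 0.06, edgeR adjusted p = 7.96e-05) and by 0.83 in Foxp1-deficient cells (SE 0.06, adjusted p = 2.94e-05), and Mtf2 fell by 0.53 in the latter (SE 0.07, adjusted p = 0.000597). The core subunits Eed (71.7 to 82.7 CPM over all libraries) and Suz12 (129 to 158.5 CPM) passed the test in no comparison. Phf19 was higher in Foxp1-deficient aTreg than rTreg cells by 1.34 (SE 0.25, edgeR adjusted p = 0.00424), at 9.98 and 10.6 CPM against 4.78 and 3.61 CPM. In that comparison 11.3% of all genes were called higher. Of the opposing H3K27 demethylases, Kdm6b fell between genotypes by 0.44 in rTreg (SE 0.06, edgeR adjusted p = 0.00582) and by 0.46 in aTreg cells (SE 0.06, adjusted p = 0.00791), in both cases under 1.5-fold, and Kdm6a did not pass.

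Of 6 genes known for Treg-specific demethylated regions, 3 fell in Foxp1-deficient rTreg cells and 2 in aTreg cells, where 5.45% and 2.77% of all genes fell. By adjusted p alone these were Ctla4, Ikzf2 and Foxp3, while Ctla4 and Il2ra fell in aTreg cells and none rose in either subset, and the median log2 fold change was -0.36 in rTreg and -0.02 in aTreg cells. Foxp3 sat on the threshold in rTreg cells, with a log2 fold change of -0.32 (SE 0.08, edgeR adjusted p = 0.0496). The list was chosen with earlier results known, and the paper reports lower Foxp3 and CTLA-4 in Foxp1-deficient rTreg cells. Counts for this list are thus a description and not separate evidence. Ctla4, a checkpoint receptor used in suppression, was the 1 called, and fell by 0.88 on the log2 scale in rTreg cells (SE 0.08, edgeR adjusted p = 0.000887). Of all genes, 2.7% were called lower there. Ctla4 stood at 353 and 197 CPM in WT rTreg and 211 and 96.6 CPM in Foxp1-deficient rTreg cells. The genotypes thus overlapped, with replicate 1 the higher library in both groups. From rTreg to aTreg, Ctla4 rose by 1.13 and 1.51 and Ikzf2 by 1.23 and 1.90 in WT and Foxp1-deficient cells, with SE of 0.08 and edgeR adjusted p of 4.50e-05, 9.16e-06, 3.45e-05 and 4.44e-06. Methylation itself was not measured in these libraries.

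Of 5 genes known as EZH2 targets in T cells, Tbx21, Gata3, Ifng and Cdkn2a were higher in aTreg than in rTreg cells, where Ezh2 was also higher. By adjusted p alone these 4 rose in both genotypes, where 18.2% (WT) and 21.9% (Foxp1-deficient) of all genes rose. The remaining gene, Eomes, lay between 1.57 and 2.95 CPM over all libraries and did not pass. Tbx21, the Th1 regulator, stood at 0.55 and 0.86 CPM in WT rTreg and 18.5 and 14.2 CPM in WT aTreg cells, a log2 fold change of 4.49 (SE 0.34, edgeR adjusted p = 8.23e-05). In Foxp1-deficient cells it stood at 0.64 and 1.30 CPM in rTreg and 21.8 and 30.1 CPM in aTreg cells, a log2 fold change of 4.60 (SE 0.32, edgeR adjusted p = 3.67e-05). Gata3, the Th2 regulator, rose by 1.48 from rTreg to aTreg in Foxp1-deficient cells (SE 0.07, edgeR adjusted p = 5.70e-06). In WT cells Gata3 rose by 0.997 (SE 0.07, edgeR adjusted p = 4.65e-05), just under the 2-fold threshold. Ifng had 3 and 5 counts in WT rTreg and 0 and 1 in Foxp1-deficient rTreg cells, against 202 and 134 in WT aTreg and 161 and 101 in Foxp1-deficient aTreg cells. Cdkn2a, a cell cycle inhibitor, had 0 and 0 counts in WT rTreg, 0 and 1 in Foxp1-deficient rTreg, 6 and 9 in WT aTreg and 28 and 41 in Foxp1-deficient aTreg cells. It was the 1 of the 5 called between genotypes, in aTreg cells (edgeR adjusted p = 0.0321), where 2.37% of all genes were called higher. By adjusted p alone Gata3 rose there too, by 0.38 on the log2 scale (SE 0.07, edgeR adjusted p = 0.0185). That made 2 of the 5, against 4.11% of all genes. In rTreg cells 0 rose and 0 fell between genotypes, against 6.57% and 5.45%.

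Markers of other cells were low and some moved with the groups. The 4 granulocyte precursor genes Mpo, Elane, Prtn3 and Ctsg were all at 0 in both WT rTreg libraries and summed to 7.49 and 4.77 CPM in Foxp1-deficient rTreg, 0.66 and 0.51 CPM in WT aTreg and 14.8 and 2.16 CPM in Foxp1-deficient aTreg cells. The 5 B cell genes summed to between 7.92 and 9.56 CPM in the rTreg libraries and between 18.3 and 21.2 CPM in the aTreg libraries. The part of such cells in the changes above was not tested.

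The counts of a gene and of a transcript on the opposite strand cannot be told apart where their exons overlap, since no source used here states the strand setting of the counting. Exons of Ezh2 overlapped the noncoding Gm26625 over 174 bases, 2.61% of its exons, Dnmt3a overlapped Dnmt3aos over 133 bases, and Tet2 overlapped Gm42567 over 43 bases. The highest count of these 3 partners in any library was 9, 5 and 2. The other 7 genes had no exon overlap with another annotated gene.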

How the data were processed

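The authors sorted the cells, made libraries with the NEBNext Ultra kit, ran trim_galore and Picard (duplicate removal), and obtained gene counts from htseq-count. The submitters' processing notes name HISAT2 2.0.5 and mm10. Deposited counts, whole reads for each gene and library, were tested unchanged. The FPKM values deposited by the authors equal the count divided by the library total and by 1 length per gene, to a relative spread of 7.77e-07 for the 10 genes, and were used only to compare genes within a library.

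The test was edgeR 4.0.16 under R 4.3.3: TMM, filterByExpr at a minimum count of 10 (13054 genes left out), glmQLFit and glmQLFTest over all 8 libraries with group means and a replicate block, and Benjamini-Hochberg over 14540 genes. The thresholds and the paired design follow the study's methods. Deviations of same-numbered replicates correlated between 0.355 and 0.597 over the 6 pairs of groups. Replicate 1 libraries held Y-linked counts (2143 to 4356) and replicate 2 libraries held Xist (15098 to 21822), so the number also carries the sex of the mice. The paper describes 2 sequencing rounds and a paired analysis meant to offset a batch effect. The labels do not say whether numbers are those rounds or whether subsets came from the same mice, and p-values measure the spread between these libraries. Replicates of a group differed by more than sampling noise (chi-square per gene 13.9 to 22.3). The depth sets a floor of 3 counts at 0.196 to 0.471 CPM, and floors cover counting error only. Scripts were tested on simulated data first.

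Genomic positions are from GENCODE M21 and promoter windows from RefSeq, both on GRCm38. The genes and all lists were chosen with earlier results of these data known. Named genes are the 10, Foxp1, list genes called between genotypes (those of the replication and mitosis lists are given as counts), up to 3 per list and direction between subsets, and the 2 genes most correlated with each of the 10. The names Mtf2, Phf1, Aebp2, Jarid2, Rbbp7, Eed, Suz12, Kdm6b, Ikzf2, Il2ra, Foxp3, Ahcy, Mat2a, Cbx7, Phc1, Kdm2b, Pcgf3, Pcgf5, Cbx2, Rybp, Gata3 and Eomes were added after their values were seen. So were Zbtb4, Mbd2 and Zbtb38. Alternatives were limma-voom (limma 3.58.1), DESeq2 1.42.0, other scalings, filters and fits, no block, and each library left out. A result for 1 gate gene is not reported here.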

Additional observations from a re-analysis of the deposited data

How the results depend on the processing

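The 5 comparisons were repeated under up to 17 alternatives. With Foxp1-deficient against WT aTreg cells, 2 of the 10 genes were called. Without the replicate block, which sets the pairing aside, 0 were called (no other call of the 10 genes changed without the block), and 1 was called (Uhrf1) with limma-voom, DESeq2, median-of-ratios size factors, the length trend removed, the libraries of the comparison alone and each library left out (1 to 1). Between subsets 1 was called, and leaving out a library gave 1 to 2 in WT cells (Ezh2 added without WT rTreg replicate 1) and 0 to 2 in Foxp1-deficient cells (Tet1 lost without aTreg replicate 2, Dnmt3b added without aTreg replicate 1, Uhrf1 added without rTreg replicate 1). The rTreg genotype call of Uhrf1 held in all 17. Direction reversed only in uncalled genes near 0. Between genotypes in rTreg cells, removing the length trend gave log2 fold changes of 0.0781 for Dnmt3a, 0.0278 for Uhrf2 and 0.0234 for Tet2, and leaving out a library gave -0.0123 to 0.0835 for Dnmt1, -0.0853 to 0.02286 for Dnmt3a and -0.0874 to 0.174 for Tet1. Between subsets in Foxp1-deficient cells, Dnmt3a gave 0.0291 with no filter, 0.01435 with the length trend removed, 0.007429 with the libraries of the comparison alone and -0.0176 to 0.01121 when a library was left out, and Tet2 gave -0.0609 to 0.101 when a library was left out. Over all genes, dropping the block cut calls between genotypes from 421 higher and 393 lower to 159 and 107 in rTreg, from 344 and 242 to 43 and 34 in aTreg cells, and the lower calls between WT subsets from 411 to 245. In aTreg cells no filter gave 583 and 452, and the libraries of the comparison alone gave 216 and 130; no filter gave 607 lower calls in rTreg cells. Differences between the genotype effects passed in 48 genes, in 0 without the block, 279 with DESeq2, 573 with no filter and 186 with robust dispersion. With libraries left out, genotype calls ranged down to 112 and 60 in rTreg and 69 and 41 in aTreg cells. Of the 10 genes, 3 passed by adjusted p only under an alternative, all in WT aTreg against rTreg cells. These were Dnmt3a (0.22 on the log2 scale, adjusted p = 0.0326) and Tet2 (0.21, adjusted p = 0.0377) with the length trend removed, and Dnmt3b (-0.38, adjusted p = 0.0371) with the libraries of the comparison alone. The causes were not tested. With 2 libraries a group, genotype differences of 1.24- to 1.34-fold (Dnmt1, Tet3 and Ezh2) passed the adjusted p in some of these settings only.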

Other observations

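The PRC1 complex binds the H3K27 mark of PRC2. Of its 19 genes, none was called between genotypes, 0 rose and 2 fell by adjusted p alone in rTreg cells (Cbx7 and Phc1), and 0 rose and 1 fell in aTreg cells (Cbx7), against 6.57% and 5.45% of all genes in rTreg and 4.11% and 2.77% in aTreg cells. From rTreg to aTreg, 3 rose (Pcgf2, Cbx6 and Kdm2b) and 4 fell (Pcgf3, Pcgf5, Cbx2 and Rybp) in WT cells, against 18.2% and 13.6% of all genes, and 4 rose and 3 fell in Foxp1-deficient cells, against 21.9% and 18.2%. The genes that fell in WT cells had log2 fold changes of -0.43 (Pcgf3), -0.49 (Pcgf5), -0.38 (Cbx2) and -0.45 (Rybp). Pcgf2, a subunit of canonical PRC1, stood at 1.66 and 0.86 CPM in WT rTreg, 3.67 and 2.17 CPM in Foxp1-deficient rTreg, 21.4 and 20.7 CPM in WT aTreg and 25.8 and 31.3 CPM in Foxp1-deficient aTreg cells. Its log2 fold change from rTreg to aTreg was 4.08 in WT (SE 0.29, edgeR adjusted p = 5.97e-05) and 3.396 in Foxp1-deficient cells (SE 0.26, adjusted p = 5.60e-05). Cbx6, a reader of the H3K27 mark, rose by 1.17 in WT cells (SE 0.07, edgeR adjusted p = 3.33e-05), from 96.1 and 92.4 CPM to 227 and 197 CPM.

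The 9 genes that supply S-adenosylmethionine, the methyl donor of both DNA and histone methyltransferases, were not called in any comparison. Between groups, 2.37% to 11.3% of all genes were called higher and 1.66% to 4.39% lower. Among the 9, Ahcy, which clears the product of methylation, rose by 0.32 on the log2 scale in Foxp1-deficient aTreg against WT aTreg cells (SE 0.07, edgeR adjusted p = 0.0290). Mat2a, which makes the donor, fell from rTreg to aTreg by 0.36 in WT (SE 0.06, edgeR adjusted p = 0.00342) and by 0.41 in Foxp1-deficient cells (SE 0.06, adjusted p = 0.00147).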
